A study of Mus musculus with 6 samples.

Results

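The T cell receptor reads antigen through a pair of variable chains and passes the signal on through the CD3 proteins. Described here are 10 genes of that machinery, chosen by name: the CD3 chain genes Cd3e, Cd3d, Cd3g and Cd247, the kinase genes Lck and Zap70, the coreceptor genes Cd4, Cd8a and Cd8b1, and the signalling protein gene Themis. They are 10 of 13931 genes measured. The cells were prepared as alveolar epithelial type 2 cells, the surfactant makers of the lung, from C57BL/6 mice. There were 3 libraries from mice given bleomycin repeatedly at 1 U/kg and 3 from mice given PBS, and the study's design text assigns 3 mice to each group. The sources used here give neither the animals' age or sex, nor the route and spacing of the exposures, nor how the cells were purified. Values are FPKM, fragment numbers scaled to transcript length and to the size of the library, so levels of different genes can be compared within a library.

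In a T cell the CD3 chains carry no antigen specificity of their own but hold the tyrosine motifs that Lck phosphorylates, and ZAP-70 then docks on the phosphorylated motifs. CD4 and CD8 bind major histocompatibility molecules of class II and class I on the other cell and bring Lck to the receptor. Type 2 epithelial cells are not known to assemble this receptor, and T cells are a normal resident of the lung's walls and airspaces. The antigen-binding alpha, beta, gamma and delta chains were not analysed here.

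All 6 libraries listed the same transcripts, and their listed FPKM summed to between 259607 and 272315 in the bleomycin libraries and to between 253146 and 300697 in the PBS libraries. How many reads lie behind a value is unknown. The defining type 2 genes were present in every library: Sftpc, the surfactant protein C gene, stood at 5545, 5805 and 2356 FPKM in bleomycin replicates 1, 2 and 3 and at 20623, 14292 and 13393 FPKM in PBS replicates 1, 2 and 3. Of 12326 genes tested with limma on log2(FPKM + 1), 15.2% were higher and 7.34% lower with bleomycin at a Benjamini-Hochberg adjusted p under 0.05. Rises were 67.4% of these calls, but 51.1% when each library was scaled to the same median and 49.8% with quantile normalization. The median log2 fold change over all tested genes was 0.09, and it was -0.07 and -0.08 with those scalings.

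All 10 genes rose with bleomycin, as did 15.2% of all tested genes, with log2 fold changes from 2.13 (Themis) to 5.16 (Lck) and a median of 3.85. These sizes hang on the 1 FPKM added before taking logs: with 0.1 added they ran from 3.42 (Zap70) to 6.86 (Lck) with a median of 5.61, and with 5 added from 0.76 (Themis) to 3.24 (Lck) with a median of 2.03. In every one the lowest bleomycin library lay above the highest PBS library, which held for 27.2% of all tested genes. Added together, they made up 0.107%, 0.09% and 0.0697% of the listed FPKM in bleomycin replicates 1, 2 and 3, against 0.001%, 0.00203% and 0.00226% in PBS replicates 1, 2 and 3. To be tested a gene needed 1 FPKM in 3 libraries, and 8 of the 10 reached it through the bleomycin libraries alone. For these 8 the lack of overlap between the groups follows from that and is no further result. Among the 588 tested genes of that kind 92.9% were called higher, so the count of 10 says little about these genes beyond their being listed near 0 with PBS. The sizes and their spread are therefore given gene by gene. In a bulk sample, more T cells in the preparation, more RNA per T cell and RNA of other cells cannot be told apart.

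**Figure D1:**
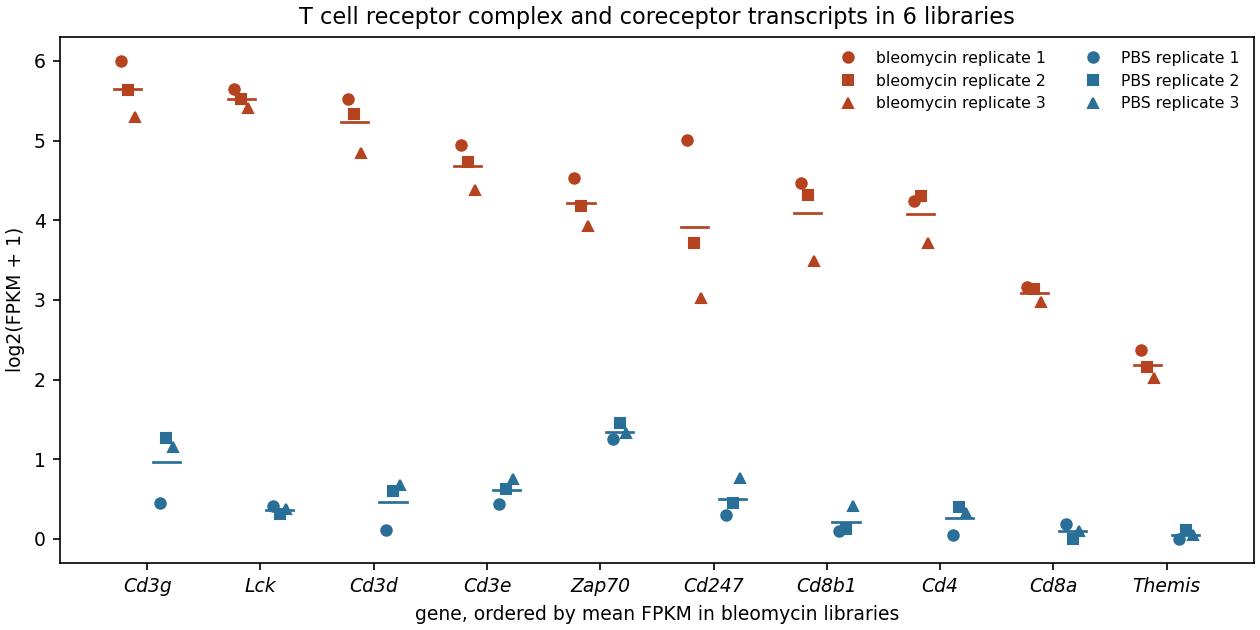
Each point is 1 library's log2(FPKM + 1) for a gene, bleomycin in red and PBS in blue, with short lines at the group means (n = 3 each). Bleomycin points lie above the PBS points for all 10 genes, from Cd3g with a bleomycin mean of 50.01 FPKM at the left to Themis with 3.56 FPKM at the right. For 8 of the 10 that separation follows from the filter.

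Of the CD3 chains, gamma and delta each pair with epsilon around the receptor. Cd3g, the gamma chain (ENSMUSG00000002033.13, mm10 chromosome 9, 44969572 to 44980431, minus strand), had 63.1, 48.6 and 38.3 FPKM in bleomycin replicates 1, 2 and 3, against 0.369, 1.41 and 1.23 FPKM in PBS replicates 1, 2 and 3. Its log2 fold change was 4.68 ± 0.29 (SE, limma adjusted p = 0.00019). Cd3d, the delta chain (ENSMUSG00000032094.7, chromosome 9, 44981793 to 44987052, plus strand), had 44.8, 39.3 and 27.8 FPKM with bleomycin and 0.0822, 0.52 and 0.599 FPKM with PBS, a change of 4.77 ± 0.25 (adjusted p = 0.000136). Both were lowest in PBS replicate 1 among the PBS libraries and lowest in replicate 3 among the bleomycin libraries. The groups did not overlap for either, which for Cd3d follows from its reaching the filter through bleomycin alone.

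Cd3e, the epsilon chain (ENSMUSG00000032093.6, chromosome 9, 44998743 to 45009590, minus strand), had 29.7, 25.6 and 19.8 FPKM in the bleomycin libraries and 0.356, 0.548 and 0.688 FPKM in the PBS libraries. It changed by 4.08 ± 0.21 (limma adjusted p = 0.000136). Within the bleomycin libraries the proportions among the chains were tight: Cd3d stood at 1.48 ± 0.0716 times and Cd3g at 1.99 ± 0.123 times the FPKM of Cd3e (SD, n = 3).

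Cd247, the chain with most of the tyrosine motifs (ENSMUSG00000005763.15, chromosome 1, 165788689 to 165870249, plus strand), was the most uneven of the 10 among the bleomycin libraries, with an SD of 75.4% of the mean, against 56.2% among the PBS libraries. It had 31.1, 12.1 and 7.15 FPKM in bleomycin replicates 1, 2 and 3, against 0.234, 0.363 and 0.706 FPKM in the PBS libraries. Bleomycin replicate 1 alone put it level with Cd3e (1.05 times), while replicates 2 and 3 had 0.471 and 0.361 times the Cd3e value. The change was 3.41 ± 0.49 (limma adjusted p = 0.00409), and it was 2.86 without bleomycin replicate 1 (adjusted p = 0.00296). The last 5096 bases of Cd247 overlap Pou2f1 on the opposite strand, at 2.13, 0.826 and 3.96 FPKM with bleomycin and 2.04, 1.02 and 2.78 FPKM with PBS. The sources used here do not say whether quantification used strand. Only the transcripts Cd247-002 and Cd247-003 reach that stretch. Cd247-004 ends before it, at 165862066, and was assigned 85.2% of the Cd247 FPKM over the bleomycin libraries and 100% over the PBS libraries.

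Cd3g, Cd3d and Cd3e lie side by side. The starts of Cd3g and Cd3d are 1362 bases apart and point away from each other, and the Cd3e start lies 29159 bases from that of Cd3g. Because these genes moved together, their promoters are shown, from 250 bases before to 50 bases after the RefSeq start (GRCm38.p6, which is mm10), each on its own gene's strand. Capitals mark the core letters GGAAGT of ETS factor sites or TGTGGT of RUNX factor sites, read on either strand:
Cd3g, chr9:44980382-44980681, minus strand: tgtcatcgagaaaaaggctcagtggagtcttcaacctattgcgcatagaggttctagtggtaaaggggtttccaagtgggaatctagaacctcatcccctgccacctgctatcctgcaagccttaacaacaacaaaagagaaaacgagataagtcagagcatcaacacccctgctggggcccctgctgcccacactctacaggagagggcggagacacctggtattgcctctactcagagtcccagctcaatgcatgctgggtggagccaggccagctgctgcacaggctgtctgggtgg
Cd3d, chr9:44981536-44981835, plus strand: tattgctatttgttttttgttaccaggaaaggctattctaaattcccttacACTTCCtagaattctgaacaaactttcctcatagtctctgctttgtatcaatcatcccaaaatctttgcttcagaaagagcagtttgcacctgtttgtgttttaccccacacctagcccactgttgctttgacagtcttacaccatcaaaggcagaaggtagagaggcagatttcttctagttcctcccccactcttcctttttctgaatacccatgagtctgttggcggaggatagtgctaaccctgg
Cd3e, chr9:45009562-45009861, minus strand: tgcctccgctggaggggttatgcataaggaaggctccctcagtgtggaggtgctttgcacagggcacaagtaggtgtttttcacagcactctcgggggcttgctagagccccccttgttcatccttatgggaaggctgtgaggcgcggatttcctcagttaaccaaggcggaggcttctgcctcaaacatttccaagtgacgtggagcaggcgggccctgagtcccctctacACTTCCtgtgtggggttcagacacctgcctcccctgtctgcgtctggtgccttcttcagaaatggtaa

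The ETS letters began at position -199 of Cd3d and at position -18 of Cd3e, counted from the start, and the RUNX letters stood in none of these windows. The RefSeq table held 12 promoters for 8 of the 10 genes, with no entry for Cd4 or Cd8b1. Of the 12, 6 held GGAAGT and 2 held TGTGGT, against 23.8% and 16.8% of the 32841 promoters of that length. Zap70, Lck and Themis have multiple windows and those of Themis overlap, so the 12 are not independent and no enrichment is read from them. The Zap70 matches lay in the window of the start at 36764515, not in that of the Zap70-001 start at 36761798. The E-box letters CANNTG were in all 12, and in 72.3% of all promoters, and TATAAA was in none of the 12, against 13.6%. A match of letters is a description and not a bound site.

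Lck, the kinase that starts the signal and rides on the coreceptors (ENSMUSG00000000409.14, chromosome 4, 129548344 to 129573641, minus strand), had the largest change of the 10. It had 49.1, 45.0 and 41.5 FPKM in bleomycin replicates 1, 2 and 3, against 0.335, 0.247 and 0.293 FPKM in PBS replicates 1, 2 and 3. Both groups were even, with an SD of 8.43% of the mean with bleomycin and 15.2% with PBS. The log2 fold change of 5.16 ± 0.15 (limma adjusted p = 0.000136) ranked 6 among all 12326 tested genes.

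Zap70, the kinase recruited next (ENSMUSG00000026117.10, chromosome 1, 36761798 to 36782818, plus strand), had 22.1, 17.1 and 14.2 FPKM with bleomycin and 1.38, 1.74 and 1.52 FPKM with PBS. It was the only one of the 10 at 1 FPKM or more in all 3 PBS libraries. Its change was 2.86 ± 0.20 (limma adjusted p = 0.000266). Lck stood at 2.22, 2.63 and 2.93 times Zap70 in bleomycin replicates 1, 2 and 3, but at 0.242, 0.142 and 0.193 times Zap70 in the PBS libraries. The PBS ratios rest on Lck values below 0.4 FPKM, and 43.0% of the Zap70 FPKM over those libraries was a short transcript described below.

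Whether a gene changed by another amount than Cd3e was tested by subtracting the log2(FPKM + 1) of Cd3e within each library and fitting limma across all genes. On that scale Lck averaged 0.84 above Cd3e with bleomycin and 0.24 below it with PBS, a difference of 1.08 ± 0.25 (adjusted p = 0.00236). Zap70 averaged 0.47 below Cd3e with bleomycin and 0.74 above it with PBS, a difference of -1.21 ± 0.24 (adjusted p = 0.000873). Both calls held under 16 of 16 alternative settings, with ranges of 0.81 to 1.52 for Lck and -1.91 to -0.64 for Zap70. Of all genes 0.122% rose more than Cd3e and 98.3% less, so the Zap70 call is shared with most genes while the Lck call is not. The PBS side of the Lck difference rests on Lck at 0.335 FPKM or less and Cd3e at 0.688 FPKM or less. The counting error of such values is unknown. Cd3d (0.69 ± 0.24, adjusted p = 0.0199) also rose more than Cd3e. Without bleomycin replicate 2 that difference was 0.66 and no longer passed (adjusted p = 0.0815). Cd3g (0.61 ± 0.26, adjusted p = 0.0464) held that call under 7 of 16 settings. Cd4 (-0.25, 95% interval -0.81 to 0.31) and Cd8b1 (-0.20, -0.79 to 0.39) did not pass, and their intervals leave room for differences either way, though Cd4 passed with 5 FPKM added (-0.41, adjusted p = 0.0329). Cd247 (-0.67, -1.54 to 0.20) did not pass with all libraries and turned on single ones. Its difference was -1.09 and passed without bleomycin replicate 1 (adjusted p = 0.00524), was -0.38 without bleomycin replicate 3 (adjusted p = 0.333), and was -0.90 with array weights (adjusted p = 0.00229). Cd8a (-1.08) and Themis (-1.95) passed on this scale, but not with 0.1 FPKM added in place of 1, which turned Cd8a to 0.25.

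**Figure D2:**
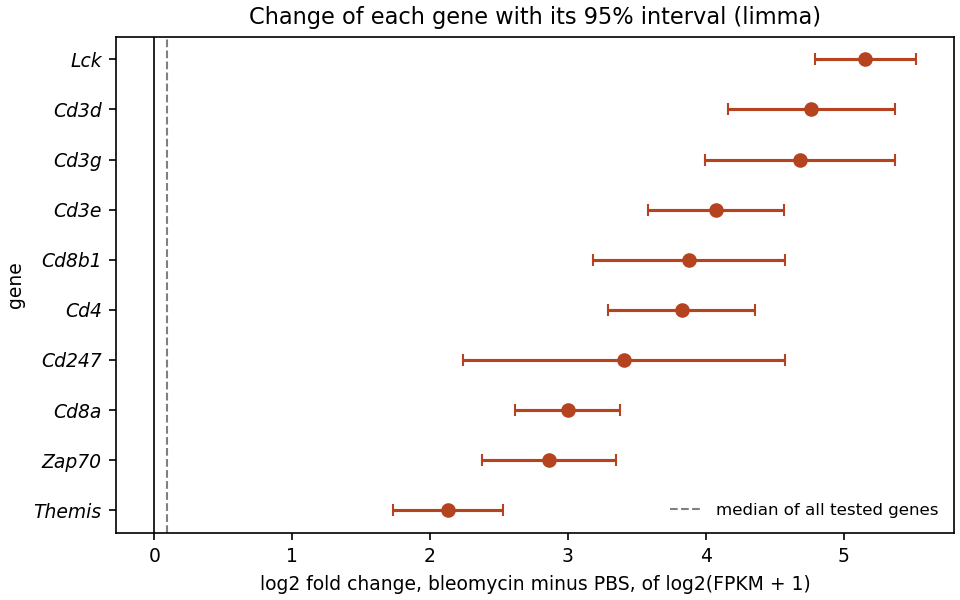
Points are the log2 fold changes of log2(FPKM + 1), bleomycin minus PBS, with 95% intervals from limma, and the dashed line is the median of all tested genes at 0.09. Lck is highest at 5.16 and Themis lowest at 2.13, and the interval of Cd247, from 2.24 to 4.57, is the widest.

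The transcripts of Lck separate by where they start. Lck-001 begins at the distal promoter (129573641) and Lck-002 at the proximal one (129558391), which is 15250 bases downstream, and both have a coding length of 1527 bases in GENCODE M21. In mice the proximal promoter is known for its use in thymocytes and the distal one for its use in mature T cells. Lck-001 had 46.1, 41.0 and 36.1 FPKM in bleomycin replicates 1, 2 and 3, against 0, 0.0512 and 0.0786 FPKM in PBS replicates 1, 2 and 3. Lck-002 had 2.64, 3.54 and 3.75 FPKM with bleomycin and 0.335, 0.195 and 0.187 FPKM with PBS. The distal transcript was therefore 93.9%, 91.0% and 87.1% of the Lck FPKM in the bleomycin libraries. Over the PBS libraries it was 14.8%, a share that rests on values below 0.1 FPKM. A further listed transcript, Lck-201, begins at 129558372 and had 0.374, 0.528 and 1.58 FPKM with bleomycin. The split among the Lck transcripts is an estimate by the authors' software.

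The distal and proximal windows of Lck, shown because Lck-001 and Lck-002 begin in them, were as follows, with the same capitals as above:
Lck distal, chr4:129573592-129573891, minus strand: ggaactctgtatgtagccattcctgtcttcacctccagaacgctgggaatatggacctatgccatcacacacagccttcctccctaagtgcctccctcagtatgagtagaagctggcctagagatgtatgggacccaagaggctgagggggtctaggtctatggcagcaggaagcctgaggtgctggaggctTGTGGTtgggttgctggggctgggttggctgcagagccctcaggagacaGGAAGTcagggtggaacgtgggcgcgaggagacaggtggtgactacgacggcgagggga
Lck proximal, chr4:129558323-129558622, minus strand: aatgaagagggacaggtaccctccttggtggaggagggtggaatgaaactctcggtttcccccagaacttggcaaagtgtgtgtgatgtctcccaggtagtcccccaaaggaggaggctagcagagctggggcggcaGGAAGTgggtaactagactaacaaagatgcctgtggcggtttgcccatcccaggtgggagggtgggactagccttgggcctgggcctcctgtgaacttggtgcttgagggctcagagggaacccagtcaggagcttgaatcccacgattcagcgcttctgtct

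The distal window held the RUNX letters at position -58 and the ETS letters at position -9. The proximal window held the ETS letters at position -113 and no RUNX letters.

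Zap70 also has a listed transcript that did not follow the rest. Zap70-001 covers the whole gene in 13 exons and had 21.1, 16.4 and 13.2 FPKM with bleomycin, against 0.794, 1.08 and 0.771 FPKM with PBS. The short Zap70-005 has 2 exons and 454 bases inside the gene (chromosome 1, 36766934 to 36771067) and had 1.02, 0.716 and 0.964 FPKM with bleomycin, against 0.591, 0.656 and 0.751 FPKM with PBS. The groups of the short transcript overlap, and it was 43.0% of the Zap70 FPKM over the PBS libraries and 5.06% over the bleomycin libraries. With only the highest transcript of each gene kept, the change of Zap70 relative to Cd3e was -0.85 (limma adjusted p = 0.011).

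Cd4, the coreceptor of helper T cells (ENSMUSG00000023274.14, chromosome 6, 124864692 to 124888221, minus strand), had 17.8, 18.7 and 12.1 FPKM in bleomycin replicates 1, 2 and 3, against 0.035, 0.321 and 0.25 FPKM in PBS replicates 1, 2 and 3. It changed by 3.83 ± 0.22 (limma adjusted p = 0.000161). Bleomycin replicate 2 was its highest library, the exception among the 10, since replicate 1 was highest for the other 9.

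Cd8b1, the beta chain of the coreceptor of cytotoxic T cells (ENSMUSG00000053044.8, chromosome 6, 71322788 to 71337494, plus strand), had 21.1, 19.0 and 10.2 FPKM with bleomycin and 0.0741, 0.0859 and 0.33 FPKM with PBS. The change was 3.88 ± 0.29 (limma adjusted p = 0.000319). Cd8a, its alpha chain partner 35933 bases further along (ENSMUSG00000053977.13, chromosome 6, 71373427 to 71379173, plus strand), had 7.96, 7.79 and 6.88 FPKM with bleomycin and 0.138, 0 and 0.0693 FPKM with PBS. It changed by 3.0 ± 0.16 (adjusted p = 0.000136) and was the most even of the 10 among bleomycin libraries, with an SD of 7.65% of the mean.

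The coreceptor levels can be set side by side in the bleomycin libraries. Cd4 stood at 0.847, 0.985 and 1.19 times Cd8b1 in replicates 1, 2 and 3, so neither was above the other in all libraries. Both were above Cd8a in every bleomycin library, with Cd4 at 2.24, 2.40 and 1.76 times and Cd8b1 at 2.65, 2.44 and 1.48 times the Cd8a FPKM. No ratio is read from the PBS libraries, where all 3 genes were below 0.4 FPKM.

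Most of Cd8a was assigned to the shorter of its transcripts. Cd8a-003, with 4 exons and a coding length of 666 bases, had 6.44, 6.67 and 6.19 FPKM with bleomycin and was listed at 0 in all 3 PBS libraries. Cd8a-001, with 5 exons and a coding length of 741 bases, had 1.51, 1.12 and 0.688 FPKM with bleomycin and 0.138, 0 and 0.0693 FPKM with PBS. These transcripts share most of their sequence, so the split between them is an estimate by the authors' software. The same holds for Cd247, where Cd247-004, whose coding length of 492 bases is that of the zeta form, made up 85.2% of the gene's FPKM over the bleomycin libraries.

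**Figure D3:**
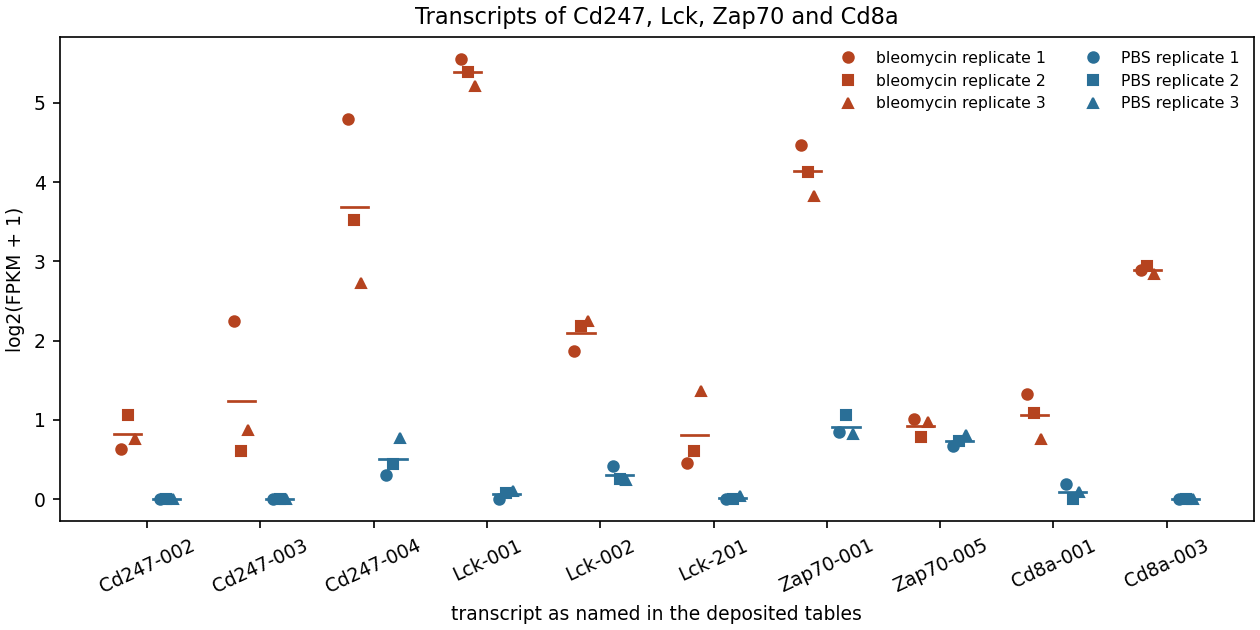
Points are log2(FPKM + 1) of single transcripts in each library, bleomycin in red and PBS in blue, with lines at the group means (n = 3 each). Lck-001 and Zap70-001 are far above their PBS points, while the points of Zap70-005 lie between 0.591 and 1.02 FPKM in both groups.

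Themis, which tunes receptor signals during T cell selection in the thymus and is kept by mature T cells (ENSMUSG00000049109.14, chromosome 10, 28668360 to 28883815, plus strand), was the lowest of the 10. It had 4.17, 3.47 and 3.05 FPKM in bleomycin replicates 1, 2 and 3, against 0, 0.0809 and 0.0315 FPKM in PBS replicates 1, 2 and 3. Its change of 2.13 ± 0.17 (limma adjusted p = 0.000352) is held down by the added 1 FPKM: it was 4.77 with 0.1 added and 0.76 with 5 added.

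By mean FPKM with bleomycin the order was Cd3g, Lck, Cd3d, Cd3e, Zap70, Cd247, Cd8b1, Cd4, Cd8a and Themis. The ranges of neighbours overlapped down to Cd4, and only the steps from Cd4 to Cd8a and from Cd8a to Themis were without overlap. Bleomycin replicate 3 was the lowest of its group for all 10 genes, and PBS replicate 1 was the lowest of its group for 8 of them. Bleomycin replicate 3 was also the lowest of its group for Sftpc.

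The rest of the signalling chain was read from lists of related genes, whose counts stand beside the 15.2% of all tested genes that rose and the 92.9% among genes that reached the filter through the bleomycin libraries alone. Of 29 tested genes of the adaptors, kinases and enzymes below the receptor 24 rose and none fell, with a median log2 fold change of 2.32, and 15 of the 29 reached the filter through bleomycin alone. Lat, the membrane adaptor that ZAP-70 phosphorylates, had 52.3, 48.9 and 28.4 FPKM with bleomycin and 0.332, 1.49 and 1.45 FPKM with PBS, a change of 4.41 (limma adjusted p = 0.000352). Prkcq, the protein kinase C theta gene, rose by 3.63 and Was, an actin regulator of blood cells, by 3.80. The 5 that did not pass, named after their values were seen, were the widely expressed genes Plcg1 (-0.15), Grb2 (0.68), Nck1 (0.15), Nck2 (0.01) and Nfatc3 (1.3).

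Of 21 tested negative regulators, from 22 listed, 17 rose and none fell, with a median of 1.72, and 9 of the 21 reached the filter through bleomycin alone. Cd5 and Cd6, surface receptors that dampen the signal, rose by 3.85 and 3.86, and Ptpn22, a phosphatase acting on Lck and ZAP-70, by 3.93 (limma adjusted p of 0.000136, 0.000136 and 0.000148). Of 20 tested other surface receptors of T cells, from 22 listed, all 20 rose (18 with equal medians and 17 with quantile normalization), with a median of 3.08, among them Ly9 (3.93) and the cytokine receptor genes Il2rb (4.01) and Il2rg (4.52). As 12 of those 20 reached the filter through bleomycin alone, that they were called says little. Of 17 tested transcription factors, from 18 listed, 14 rose and none fell, with a median of 2.13, and 7 of the 17 reached the filter through bleomycin alone: Tcf7 rose by 3.77, Satb1 by 3.09 and Ikzf1 by 3.78. Foxp3, the factor of regulatory T cells, was under the filter, at 1.74, 1.65 and 0.774 FPKM with bleomycin and listed at 0 in all 3 PBS libraries. Of the genes listed for thymocytes Cd1d1 rose by 1.45, which alone does not mark thymocytes. Dntt, the enzyme that diversifies receptor joints, was under 1 FPKM in all 6 libraries. Rag1 and Ptcra were not analysed here.

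Some of the 10 genes are also used by other cells. Natural killer cells use Cd247, Lck and Zap70, and dendritic cells can carry Cd8a or Cd4. All 20 tested natural killer and innate lymphoid genes, from 22 listed, rose, with a median of 3.10, against 15.2% of all tested genes, but 14 of the 20 reached the filter through bleomycin alone, where 92.9% of genes were called. Of these, Ncr1, a natural killer receptor gene, had 9.21, 6.47 and 5.81 FPKM with bleomycin and 0.0735, 0.308 and 0.161 FPKM with PBS. Of 15 tested genes of macrophages and dendritic cells, from 19 listed, 11 rose, with a median of 2.05, 5 of the 15 reached the filter through bleomycin alone, and Xcr1, Clec9a, Siglech and Ccr9 were under the filter. The natural killer and innate lymphoid genes summed to between 634 and 1068 FPKM with bleomycin and to between 19.0 and 29.2 FPKM with PBS. The largest parts of that sum with bleomycin were Ccl5, Gzma, Tyrobp and Fcer1g, so it follows these few genes more than Ncr1. The sum is therefore no measure of natural killer cells. In bleomycin replicates 1, 2 and 3 Ccl5 had 353, 340 and 155 FPKM and Gzma 155, 127 and 60.3 FPKM. Tyrobp had 161, 79.8 and 148 FPKM and Fcer1g 145, 83.7 and 143 FPKM. The macrophage and dendritic genes summed to between 244 and 481 FPKM with bleomycin and 45.2 and 61.8 FPKM with PBS. Without Bst2, highest of them with PBS, they summed to 215 to 416 FPKM with bleomycin and 29.4 to 32.6 FPKM with PBS. The part of these cells in the levels of Cd247, Lck, Zap70, Cd4 and Cd8a was not tested.

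Genes of other blood and vessel cells moved in the same libraries. All 10 B cell genes rose (median 3.51), as did all 6 neutrophil genes (4.17), 9 of 11 pan-leukocyte genes (4.63) and 9 of 10 endothelial genes (2.83, with Pecam1 at 3.28), and none of these fell, against 15.2% of all tested genes higher and 7.34% lower. Of these lists 1 B cell gene, 2 neutrophil genes, 0 pan-leukocyte genes and 2 endothelial genes reached the filter through bleomycin alone. Of 6 tested erythroid genes 3 rose (median 3.59), a count that was 0 without bleomycin replicate 2, PBS replicate 1 or PBS replicate 3 and 6 without PBS replicate 2. The B cell genes summed to between 319 and 486 FPKM with bleomycin and to between 15.1 and 29.4 FPKM with PBS, and the endothelial genes to between 297 and 559 FPKM with bleomycin and to between 29.4 and 33.0 FPKM with PBS. The pan-leukocyte genes other than Tmsb4x summed to between 1090.5 and 1631 FPKM with bleomycin and to between 38.7 and 66.9 FPKM with PBS. Tmsb4x, a widely expressed actin-binding gene set apart after its values were seen, did not pass. It had 1884, 1658 and 1439 FPKM in bleomycin replicates 1, 2 and 3, against 1611, 1315 and 407 FPKM in PBS replicates 1, 2 and 3. Cd52 was the other pan-leukocyte gene that did not pass, with a change of -0.57. It had 0.583, 1.13 and 199 FPKM in bleomycin replicates 1, 2 and 3, against 9.48, 10.3 and 17.6 FPKM with PBS. Without bleomycin replicate 3, 1 pan-leukocyte gene was called lower. The neutrophil genes summed to between 413 and 606 FPKM with bleomycin and to between 9.34 and 31.3 FPKM with PBS, and the erythroid genes to between 639 and 1187 FPKM with bleomycin and to between 19.4 and 431 FPKM with PBS. Of the genes in these lists Il1rl1, an innate lymphoid receptor gene, and Cldn5, an endothelial junction gene, were listed at 0 in all 3 PBS libraries, and none was at 0 in all 3 bleomycin libraries. Of 11 type 2 genes 9 fell and none rose (median -1.90), and Nkx2-1 (-2.12) and Lyz2 (-0.24) did not pass. They summed to between 3708 and 10535 FPKM with bleomycin and to between 18668 and 27035 FPKM with PBS. Without Sftpc the sums were between 1352 and 4990 FPKM with bleomycin and between 5275 and 6411 FPKM with PBS. Lyz2 had 3508, 618 and 463 FPKM in bleomycin replicates 1, 2 and 3, against 1386, 1169 and 1026 FPKM in PBS replicates 1, 2 and 3. The upper bleomycin sum without Sftpc, 4990 FPKM, was that of replicate 1 and was mostly Lyz2. Ptprc, the pan-leukocyte CD45 gene, had 249, 123 and 107 FPKM in bleomycin replicates 1, 2 and 3, against 0.0706, 3.81 and 4.85 FPKM in PBS replicates 1, 2 and 3. Cd3e was at 0.119, 0.208 and 0.185 times the Ptprc FPKM in the bleomycin libraries, and at 5.04, 0.144 and 0.142 times in PBS replicates 1, 2 and 3.

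PBS replicate 1 was the lowest library for Ptprc, and leaving it out turned the difference of Lck relative to Ptprc to 0.36, against -0.43 with all libraries. Relative to Ptprc 98.9% of all genes were called lower and 0% higher, and 4 of the 10 (Cd247, Zap70, Cd8a and Themis) were called lower, which is no result about them. The part of the accompanying cell types in the change of the 10 genes was not tested.

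**Figure D4:**
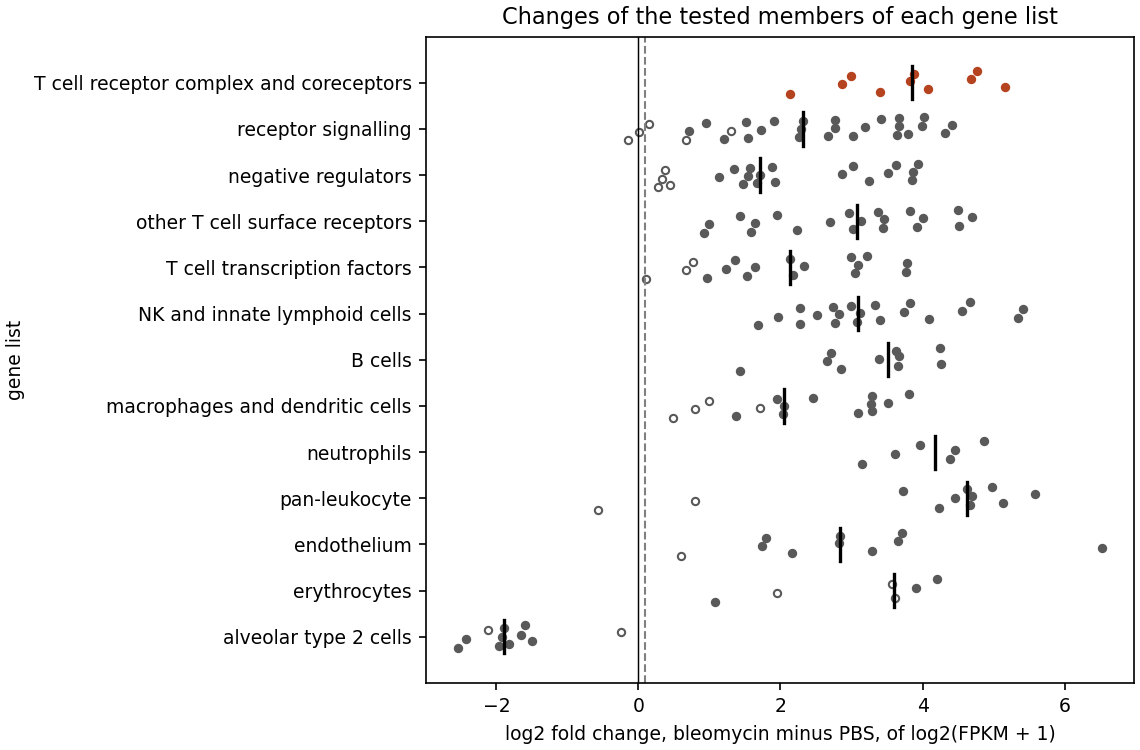
Each point is the log2 fold change, bleomycin minus PBS, of a tested gene, filled where the limma adjusted p was under 0.05, with a bar at each list's median and a dashed line at the median of all tested genes. The 10 genes in red have a median of 3.85, below those of the pan-leukocyte genes at 4.63 and the neutrophil genes at 4.17 and above that of the B cell genes at 3.51, while the type 2 genes have a median of -1.90. That order changes with the added constant: with 0.1 added the medians are 5.61, 4.94, 5.09 and 4.29 for the 10 genes, the pan-leukocyte, the neutrophil and the B cell genes, and with 5 added they are 2.03, 3.65, 2.73 and 2.32.

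The genes whose course over the 6 libraries was most like the median of the 10 were found by the root mean square difference of centred log2(FPKM + 1) values. They were Epsti1 (0.0645), Tbc1d10c (0.0697), Gimap8 (0.133), which encodes a lymphocyte GTPase, Thy1 (0.139) and Cd6 (0.141). Thy1, a surface glycoprotein of mouse T cells, had 46.0, 51.1 and 33.9 FPKM with bleomycin and 1.73, 2.07 and 2.62 FPKM with PBS. Among the 10 themselves the difference from their own median ran from 0.0862 for Cd8b1 to 0.895 for Themis. The measure covers 6 libraries in 2 groups that lie far apart, so it mostly compares the size of the change.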

How the data were processed

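RNA sequencing libraries were prepared with a stranded KAPA kit from total RNA isolated with TRIzol, per the labels' protocols. HISAT2, StringTie, FastQC 0.10.1 and the build mm10 are named per the submitters' processing notes, while the sources used here name no annotation release or settings. The authors deposited FPKM per transcript for 24647 transcripts, per the file headers. Whole reads could not be recovered: at most 26.4% of low values in a library fell within 0.05 of a multiple of a common step, so depth and counting error are unknown. An exact 0 may be a failed estimate.

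FPKM were summed by gene ID. Genes at 1 FPKM or more in at least 3 of 6 libraries (12326) were tested with limma 3.58.1 in R 4.3.3 (a 2-group model with a mean-variance trend) on log2(FPKM + 1), so fold changes of low genes are understated, with Benjamini-Hochberg adjustment over all tested genes and a threshold of 0.05. A second fit subtracted Cd3e or Ptprc within each library. An exact permutation test of 3 against 3 cannot go below 0.10. Same-numbered bleomycin and PBS libraries are not stated to be paired. The test was checked on simulated data. Transcript structures came from GENCODE M21, which held 16 of the 18 transcripts, and promoters from RefSeq (GRCm38.p6).

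The 10 genes and the gene lists were chosen with earlier results of these data known. Of each list, up to 3 tested genes with the smallest adjusted p could be named, besides a fixed few, and some of these are not reported here. Alternatives covered the pseudocount, the filter, library scaling, the transcript sum, the variance trend, library weights, the replicate block and each library left out.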

Additional observations from a re-analysis of the deposited data

How the results depend on the processing

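Each of the 10 genes was higher with bleomycin and passed under every alternative in which it was tested, 16 for 9 genes and 15 for Themis, which the 5 FPKM filter left out. Same-numbered libraries did not deviate together (correlations across genes of -0.0043, 0.0172 and 0.0391 for numbers 1, 2 and 3), and with the replicate block all 10 genes still passed, while relative to Cd3e the calls of Cd3d and Cd3g were lost (limma adjusted p of 0.0925 and 0.136). The count of genes lower with bleomycin, 905, was 1413 with equal medians, 1441 with quantile normalization and 563 with the replicate block. It lay between 457 and 873 with single libraries left out: 513 and 508 after dropping bleomycin replicate 1 or 2, and 473, 514 and 457 after dropping PBS replicate 1, 2 or 3. The count of genes higher, 1871, stayed within 1.5 times under all of them. With equal medians and quantile normalization the other lists kept their direction, and their counts in the called direction changed by at most 1 gene, apart from the surface receptors (18 and 17 of 20).

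Some differences between genes turned direction. Relative to Cd3e with 0.1 added, Cd4, Cd8a and Cd8b1 differed by 0.55, 0.25 and 0.73, against -0.25, -1.08 and -0.20 with 1 added, and Cd8b1 by 0.017 with array weights. Relative to Ptprc, Lck differed by 0.21 with 0.1 added, 0.57 with the highest transcript only, 0.52 with array weights and between -0.88 and 0.36 with single libraries left out (0.36 without PBS replicate 1), against -0.43, and Cd3d by 0.0086 with the highest transcript only, against -0.82. The cause was not tested in these cases. The fall of Sftpc (-1.90, limma adjusted p = 0.0349) was -0.53 and did not pass with quantile normalization. It lay between -2.13 and -1.48 with single libraries left out, and passed only without bleomycin replicate 3 (-1.48). Of the 10 genes 8 were under 1 FPKM in every PBS library, and the counting error of such values is unknown.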
